A study of Homo sapiens with 6 samples.

Results

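YAP1, TEAD1 and 8 direct target genes of the pair (CCN2, CCN1, ANKRD1, AXL, FJX1, AMOTL1, AMOTL2 and LATS2) were followed in NCI-H292 cells with and without CT45A1. CCN2 and CCN1 are the current symbols of CTGF and CYR61. The members were chosen by gene symbol, as every probe set that the array's annotation gives to 1 of these 10 genes and to no other gene. They are 10 of 19775 genes named on the array and were represented by 22 probe sets, of which 20, from 9 genes, were bright enough to test.

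NCI-H292 is an established line from a human mucoepidermoid carcinoma of the lung. Cells of the CT45A1 overexpression group stably carried CT45A1-Venus, a construct with the fluorescent protein Venus, and cells of the CT45A1 negative group stably carried the Venus vector, so Venus and stable transfection are common to both. CT45A1 belongs to the cancer/testis antigens, genes active chiefly in the germ line and in tumours. Each group had 3 arrays. Neither separate cultures nor the use of 1 clone or a pool is stated, so the p-values refer to array-to-array spread, which could be technical. RNA came from whole cultures, and fewer cells with a transcript cannot be told apart from less of it per cell.

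YAP1 is a transcriptional coactivator that does not bind DNA by itself and acts mainly through the TEAD family of DNA-binding proteins, of which TEAD1 is one. In the Hippo pathway the MST kinases activate the LATS kinases, and LATS phosphorylates YAP1, which is then held in the cytoplasm or degraded, so that much of the control of YAP1 is exerted on the protein and is not read by a measurement of its mRNA. Several target genes, among them LATS2 and the angiomotin-like genes AMOTL1 and AMOTL2, encode inhibitors of YAP1 and form a feedback loop.

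The values are MAS5 signals, the brightness of each probe set on a linear scale, whose trimmed mean is the same on all arrays. Every difference is overexpression minus negative in log2 units, and "rose" and "fell" are used of an adjusted p under 0.05 in limma over 27618 probe sets. The array medians were 79.3 to 83.6 with CT45A1 and 72.8 to 75.9 without it. Both probe sets for the CT45 family, each annotated to 9 CT45 genes, were higher on every overexpression array, with signals of 154 to 700.1 against 1.95 to 36.3. All 6 epithelial marker genes, among them the keratins KRT7, KRT8, KRT18 and KRT19, exceeded the array median on all 6 arrays at 9 of 11 probe sets, while 0 of 21 fibroblast and 0 of 11 leukocyte probe sets did. Endothelial markers did so at 3 of 13 probe sets, from PECAM1 and CDH5, and their summed signal was 695 to 734 with CT45A1 and 473 to 621 without it. The summed epithelial signal was 73873.5 to 75188 with CT45A1 and 75460 to 82341 without it. Of 9 tested epithelial probe sets 1, that of KRT18, fell, by 0.25 (limma adjusted p = 0.0393). The fibroblast and leukocyte sums overlapped between the groups. The part of these differences in the results was not tested. The 3'/5' signal ratio of the actin control probe sets is a measure of RNA integrity and labelling length. It was 1.42 to 1.55 in the overexpression group and 1.64 to 1.91 in the negative group, so this ratio was lower on every overexpression array. The 3'/5' ratio of the GAPDH control was 0.969 to 1.04 against 1.05 to 1.18, also lower on every overexpression array. A model with the actin ratio as a covariate therefore separates that ratio from CT45A1 only by the spread among the few arrays within a group. Results of that model below are values under a setting and not a correction for RNA quality.

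Of the 20 member probe sets tested, CCN2 rose, FJX1 fell and 18 did not pass. The share of all tested probe sets that passed was 3.23%, with 1.89% rising and 1.34% falling, and a count of 2 in 20 is too small to set the members apart from it. The 3 overexpression arrays lay wholly above or wholly below the 3 negative arrays at 6 of the 20, 2 higher and 4 lower, and over all tested probe sets this share was 26.6%, with 15.2% higher and 11.4% lower. The member differences ran from -0.59 to 0.90 with a median of -0.09, and 13 of 20 lay below 0, against a median of 0.03 and 44.5% below 0 over all tested probe sets. After quantile normalization 11 of 20 member probe sets lay below 0, against 51.1% of all. With the filter at the 75th percentile, which keeps only brighter probe sets, 11 of 17 did, against 53.1% of all kept. The member median was -0.039 without negative replicate 2, -0.048 without overexpression replicate 3, -0.14 without overexpression replicate 2 and -0.16 without negative replicate 3. It was -0.23 with 18 of 20 below 0 after centring each array on its median. Centring moved the median of all tested probe sets to -0.11 and put 66% of them below 0. With the actin ratio in the model the member median was -0.30 with 15 of 20 below 0, against 0.034 and 46.3% over all tested probe sets.

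**Figure D1:**
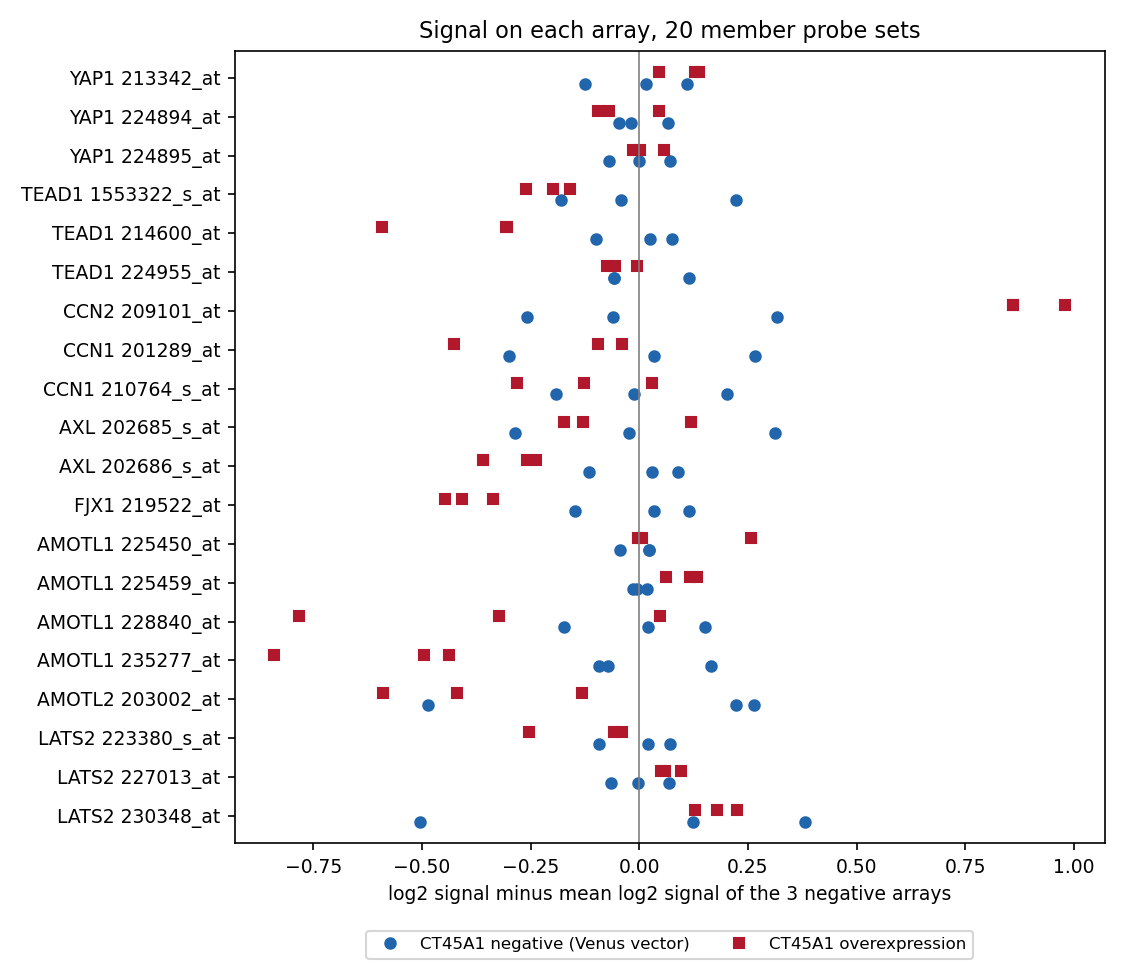
Each row is 1 member probe set, and the horizontal axis gives the log2 signal on each array minus the mean log2 signal of the 3 negative arrays; red squares are the 3 overexpression arrays and blue circles the 3 negative arrays. The CCN2 squares stand to the right of all CCN2 circles, the FJX1 squares and those of AXL 202686_s_at stand to the left of theirs, and the YAP1 points of the groups overlap at all 3 probe sets.

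YAP1 mRNA differed little between the groups. At 224894_at, its brightest probe set, the signals were 8709, 9433 and 8555 with CT45A1 and 9024, 9565 and 8853 without it. The 2 groups overlap there, and the difference was -0.04 (SE 0.06, limma adjusted p = 0.761). At 224895_at the signals were 4998, 4756 and 4810 against 5044, 4579 and 4806, a difference of 0.01 (SE 0.06). At 213342_at they were 3468, 3673 and 3701 against 3626, 3083 and 3402, a difference of 0.10 (SE 0.08). The groups overlapped at each of the 3 probe sets, and none passed. The 95% intervals of the fold were 0.883 to 1.07, 0.915 to 1.11 and 0.955 to 1.21, for the signals as deposited. Under other processing settings the differences reached -0.185 at 224894_at, -0.13 at 224895_at and 0.20 at 213342_at, and none passed. The level of YAP1 protein, its phosphorylation and its location were not measured.

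TEAD1, the DNA-binding partner, gave different values at its 3 probe sets. The brightest, 224955_at, had signals of 7785, 7687 and 8073 with CT45A1 and 7777, 8773 and 7783 without it. The groups overlapped, with a difference of -0.05 (SE 0.07, limma adjusted p = 0.740). The dimmer 214600_at had signals of 928, 930 and 762 against 1072, 1208 and 1168. All overexpression arrays were lower there, by 0.40 (SE 0.10), with a limma adjusted p = 0.0681 that misses the threshold. The dimmest, 1553322_s_at, overlapped between the groups and differed by -0.21 (SE 0.13). The mean of the 3 probe sets differed by -0.22 (SE 0.08, limma adjusted p = 0.163 over genes). After centring each array on its median, 214600_at passed at -0.55 (limma adjusted p = 0.011).

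CCN2 and CCN1 are secreted matricellular proteins of 1 family that bind integrins and heparan sulfate, and both are standard readouts of YAP1 and TEAD activity. They did not move alike. CCN2 had signals of 1838, 1997 and 1838 with CT45A1 and 971, 1262 and 847 without it. Every overexpression array was above every negative array, and the negative arrays were the more spread out, with log2 means of 10.88 ± 0.07 and 9.98 ± 0.29 (SD, n = 3 each). CCN2 rose by 0.90 (SE 0.13, limma adjusted p = 0.00784), or 1.87-fold with a 95% interval of 1.53 to 2.28. Only 1 probe set represents CCN2. CCN1, the brightest member, had signals of 16906, 16272 and 12925 against 17773, 20896 and 14103 at 201289_at. The groups overlapped, and the third array of each was its lowest. The difference was -0.19 (SE 0.14, limma adjusted p = 0.468), with a 95% interval of -0.49 to 0.12. The second CCN1 probe set, 210764_s_at, differed by -0.13 (SE 0.10) and also overlapped. Leaving out 1 array moved 201289_at from -0.053 without negative replicate 2 and -0.066 without overexpression replicate 3 to -0.34 without negative replicate 3, and 210764_s_at from -0.025 and -0.049 to -0.22 without the same arrays and to -0.20 without overexpression replicate 1, with no call. With the actin ratio in the model, which does not overlap between the groups, both passed, at -0.79 (limma adjusted p = 0.00843) and -0.55 (limma adjusted p = 0.0309).

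The CCN2 to CCN1 ratio within an array is unchanged by scaling an array by 1 factor, but can change under quantile normalization. Its log2 value at 209101_at and 201289_at was -3.20, -3.03 and -2.81 on the overexpression arrays and -4.19, -4.05 and -4.06 on the negative ones. The ratio was therefore higher on all overexpression arrays, by 1.09, with an exact two-sided permutation p = 0.1, the smallest that 3 against 3 arrays can give. This pair and the pairs below were picked after their values were seen. The CCN2 to FJX1 ratio was higher by 1.30 and the CCN2 to AXL ratio, at 202686_s_at, by 1.19, each with exact permutation p = 0.1. CCN2 was higher, and FJX1 and AXL 202686_s_at lower, on all overexpression arrays. Both ratios therefore had to separate the groups, and their p-values add nothing to the values of the single genes.

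The CCN2 call depended on the variance model and on the actin ratio. With that ratio, on the log2 scale, added to the model the CCN2 difference was 0.49 (SE 0.19, limma adjusted p = 0.199), while 5 of the 20 member probe sets fell. Of all 27618 probe sets tested 702 passed in that model, 390 rising and 312 falling. Without the variance trend in limma none of the 20 passed, with an adjusted p of 0.0854 for CCN2, and 4 probe sets passed in the whole table. CCN2 also missed the threshold without overexpression replicate 2, at 0.86 (limma adjusted p = 0.0513), and passed in 14 of 17 alternatives, with differences of 0.49 to 1.06 over all of them.

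TEAD proteins bind the letters CATTCC, read as GGAATG on the other strand. The 250 bases before the annotated start are shown for 3 members, in RefSeq's sequence of GRCh38.p14: CCN2, the member that rose, ANKRD1, the other member with more than 1 match among those searched, and FJX1, the member that fell. Each is written 5' to 3' on the gene's own strand, with every match in capitals. The windows are chr6:131951373-131951622, strand minus (CCN2), chr10:90921088-90921337, strand minus (ANKRD1) and chr11:35618210-35618459, strand + (FJX1).
CCN2: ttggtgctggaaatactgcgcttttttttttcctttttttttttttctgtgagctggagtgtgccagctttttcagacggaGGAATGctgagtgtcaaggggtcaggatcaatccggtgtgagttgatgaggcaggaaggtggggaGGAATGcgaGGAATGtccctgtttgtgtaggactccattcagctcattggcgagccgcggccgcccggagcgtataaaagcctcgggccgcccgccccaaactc
ANKRD1: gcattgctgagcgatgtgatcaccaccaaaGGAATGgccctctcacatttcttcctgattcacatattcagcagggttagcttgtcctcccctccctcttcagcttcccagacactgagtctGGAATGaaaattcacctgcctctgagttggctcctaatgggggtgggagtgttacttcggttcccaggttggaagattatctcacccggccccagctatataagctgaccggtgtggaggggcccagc
FJX1: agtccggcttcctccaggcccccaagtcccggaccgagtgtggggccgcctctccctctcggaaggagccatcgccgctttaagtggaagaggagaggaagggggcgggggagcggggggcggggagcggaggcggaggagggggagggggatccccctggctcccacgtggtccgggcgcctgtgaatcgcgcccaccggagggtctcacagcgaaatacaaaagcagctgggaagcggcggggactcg
In CCN2 the 3 matches begin 169, 104 and 95 bases before the start. In ANKRD1 the 2 matches begin 220 and 128 bases before it, and the FJX1 window holds none. Promoter windows were found for 8 of the 10 members, 10 windows in all, and 5 windows of 5 genes held at least 1 match, the others being YAP1, AMOTL2 and AXL with 1 each. Over 35116 windows of the same length in the table, 11.9% held at least 1 match, 0.94% at least 2 and 0.0826% at least 3. These matches describe the sequence alone, since binding was not measured here.

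ANKRD1, a muscle ankyrin repeat protein whose gene is a sensitive YAP1 target in many cell types, was dim in NCI-H292. Its single probe set, 206029_at, had signals of 7.44, 15.7 and 17.8 with CT45A1 and 21.9, 23.02 and 29.6 without it. All 6 lie below the median of their array, so the gene was not tested and no fold is given, although every overexpression array was the lower.

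AXL and FJX1 are target genes with products at or outside the cell surface, and both were lower with CT45A1. AXL is a receptor tyrosine kinase of the TAM family. At 202686_s_at its signals were 8914, 8193 and 8797 with CT45A1 and 10726, 11181 and 9701 without it. The groups did not overlap, and the difference of -0.29 (SE 0.07) had a limma adjusted p = 0.0525, just short of the threshold. When each gene was represented by its brightest probe set and p-values were adjusted over 11895 genes, of which 3.83% passed, 1.94% rising and 1.89% falling, AXL passed at an adjusted p of 0.0486. The dimmer AXL probe set, 202685_s_at, had signals of 574, 681 and 556 against 779, 617 and 514, which overlap, and it differed by -0.06 (SE 0.15). AXL 202686_s_at also passed without negative replicate 3, at -0.34 (limma adjusted p = 0.026), and in 7 of 17 alternatives in all. The mean of both probe sets differed by -0.17 (limma adjusted p = 0.321).

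FJX1, a secreted relative of the Drosophila protein Four-jointed, had signals of 2756, 2624 and 2556 with CT45A1 and 3562, 3771 and 3142 without it at its only probe set. All overexpression arrays were lower, and FJX1 fell by 0.40 (SE 0.08, limma adjusted p = 0.0314), or 1.32-fold, from a log2 mean of 11.77 ± 0.13 to 11.37 ± 0.05 (SD, n = 3). The call is narrow: it was lost without any one of the arrays other than negative replicate 3, with adjusted p-values of 0.0774, 0.123 and 0.0788 without overexpression replicate 1, 2 or 3 and 0.103 and 0.087 without negative replicate 1 or 2, and 0.0123 without negative replicate 3. It was also lost with no filter on dim probe sets (adjusted p = 0.0501) and without the variance trend (0.137), and FJX1 in the model with the actin ratio differed by -0.66 (SE 0.11, limma adjusted p = 0.0158).

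**Figure D2:**
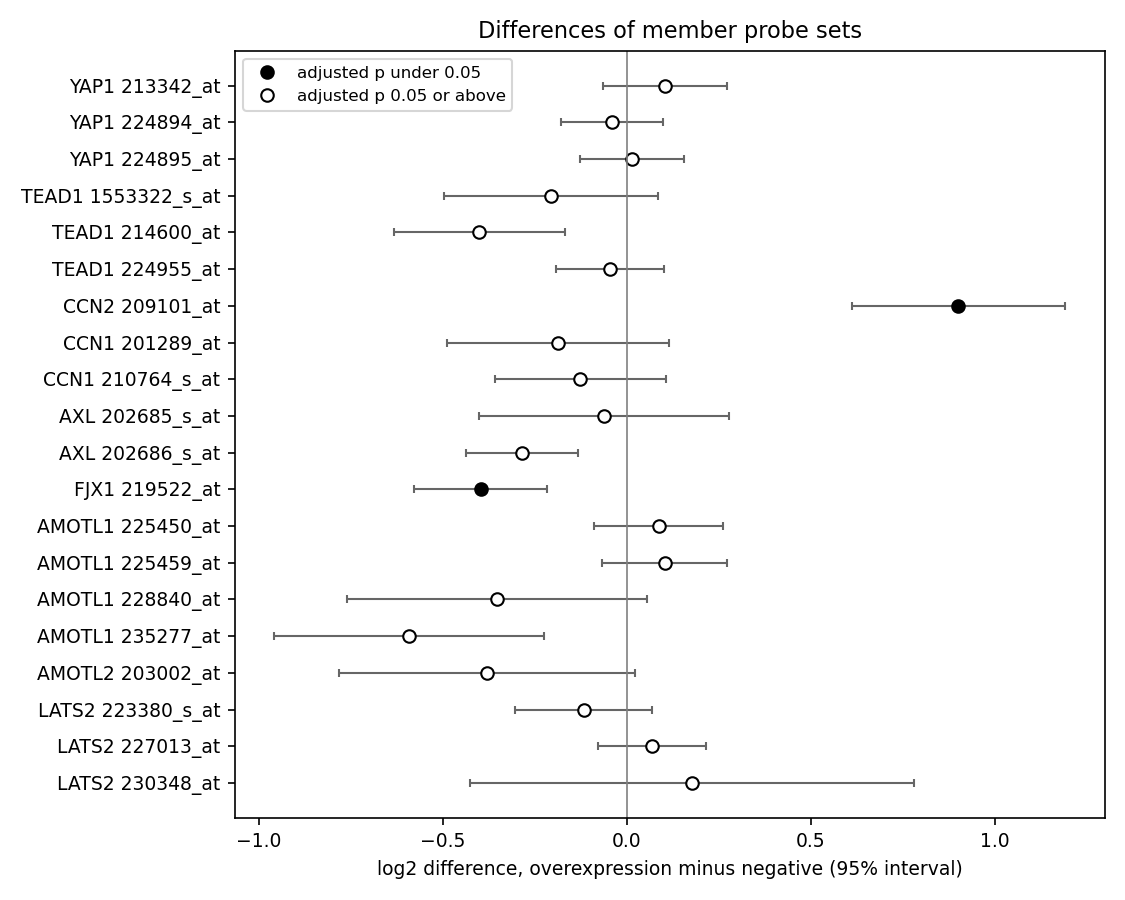
Points give the log2 difference, overexpression minus negative, for each of the 20 member probe sets tested, with limma's 95% interval; filled points have an adjusted p under 0.05. CCN2 lies at 0.90 and FJX1 at -0.40, and the intervals of the 3 YAP1 probe sets all include 0.

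The feedback inhibitors among the targets did not pass. AMOTL1 and AMOTL2 are angiomotin relatives that bind YAP1 at tight junctions and on actin. AMOTL2 had signals of 4597, 5612 and 4088 with CT45A1 and 7171, 7379 and 4390 without it. The first 2 negative arrays were above every overexpression array and the third was within their range, and the difference was -0.38 (SE 0.18, limma adjusted p = 0.266). Without negative replicate 3 AMOTL2 passed at -0.62 (limma adjusted p = 0.0218), and in the model with the actin ratio at -1.11 (limma adjusted p = 0.0208), which are the 2 of 17 alternatives in which it passed. The difference was -0.25 without negative replicate 2 (limma adjusted p = 0.523), -0.27 without negative replicate 1 and -0.28 without overexpression replicate 3.

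The 4 AMOTL1 probe sets pointed in both directions. At the brightest, 225450_at, signals were 5054, 5083 and 6053 with CT45A1 and 4910, 5140.5 and 5146 without it, which overlap, for a difference of 0.09 (SE 0.08). At 225459_at all overexpression arrays were higher, by 0.10 (SE 0.08). At 235277_at, with signals of 227, 172 and 218 against 288, 293 and 345, all overexpression arrays were lower, by 0.59 (SE 0.17, limma adjusted p = 0.0835). At 228840_at the groups overlapped, with a difference of -0.35 (SE 0.18). The first 2 lay below 0 after centring each array on its median, at -0.06 and -0.04, and 235277_at passed there at -0.74 (limma adjusted p = 0.0196) and after quantile normalization at -0.70 (limma adjusted p = 0.0493). The mean of the 4 probe sets differed by -0.19 (limma adjusted p = 0.205).

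LATS2, the kinase that phosphorylates YAP1 and is itself a YAP1 target, was close to level at its bright probe sets. At 227013_at the signals were 3350, 3329 and 3435 with CT45A1 and 3207, 3374 and 3072 without it, a difference of 0.07 (SE 0.07). At 223380_s_at they were 2288, 2316 and 1996 against 2233, 2501 and 2414, a difference of -0.12 (SE 0.08). The groups overlapped at both, with 95% intervals of the fold of 0.946 to 1.16 and 0.810 to 1.05. The dimmer 230348_at differed by 0.18 (SE 0.27), and 223379_s_at lay below the array median on all 6 arrays and was not tested.

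Probe sets of other YAP1 and TEAD target genes from a wider list moved in both directions. From this list 54 probe sets of 17 genes were tested. Of these, 3 probe sets rose and 1 fell, while 3.23% of all tested probe sets passed. On this list 37 of 54 lay below 0 with a median of -0.09, against 44.5% below 0 and a median of 0.03 over all tested probe sets. With the filter at the 75th percentile 28 of 36 lay below 0, against 53.1% of all kept. Without overexpression replicate 3 the count below 0 was 27 of 54 and the median -0.005. TGFB2, a TGF-beta ligand, rose at 2 of its 4 tested probe sets, by 1.47 (SE 0.27) at 209908_s_at, where the signals were 251, 211 and 154 against 77.7, 57.7 and 85.4 and the negative arrays lay near their array median, and by 0.54 (SE 0.11) at 209909_s_at. Its brightest probe set, 228121_at, differed by -0.05 (SE 0.13). MYOF, a membrane repair ferlin, rose by 0.42 (SE 0.07, limma adjusted p = 0.0116) at 211864_s_at and differed by -0.07 at its brightest probe set. GADD45A, a stress-induced growth arrest gene, fell by 0.41 (SE 0.09, limma adjusted p = 0.0425). All 4 calls were lost without overexpression replicate 1 or 2, with adjusted p-values of 0.0561 to 0.134; those of TGFB2 and GADD45A were also lost without negative replicate 1 or 2 (0.0521 to 0.105), and that of GADD45A without overexpression replicate 3 (0.0937). All 4 were also lost without the variance trend and with the actin ratio in the model, and GADD45A after quantile normalization (0.053) and with no filter (0.0657). GADD45A passed in 8 of 17 alternatives, TGFB2 209908_s_at in 8 of 14, TGFB2 209909_s_at in 9 of 15 and MYOF 211864_s_at in 11 of 15. With the actin ratio in the model 2 probe sets of this list rose and 10 fell, against 390 and 312 of all 27618 tested.

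Among the paralogues and cofactors, TAZ (WWTR1), the YAP1 relative, differed by -0.005 (SE 0.08) at its brightest probe set, with overlapping groups. TEAD4 fell by 0.78 (SE 0.12, limma adjusted p = 0.0125) at 41037_at, from signals of 432, 482 and 432 to 266, 274 and 245. Its other probe set, 204281_at, was also lower on all overexpression arrays, by 0.30 (SE 0.12, limma adjusted p = 0.201). The mean of both fell by 0.54 (limma adjusted p = 0.0249 over genes). This TEAD4 probe set, 41037_at, was the only 1 of 13 tested for the 7 paralogue and cofactor genes to pass. Of all tested probe sets 3.23% passed, and 1 of 13 is too small a count to set this list apart. The 41037_at call was lost without overexpression replicate 2 (adjusted p = 0.0537), without the variance trend (0.066) and with the actin ratio in the model (0.0674). TEAD3 differed by 0.45 (SE 0.12, limma adjusted p = 0.0671), in the opposite direction.

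Upstream, 1 of 47 tested probe sets for 14 Hippo kinases and scaffolds passed, where 3.23% of all tested probe sets did. The median of the 47 was -0.05 with 24 below 0, against 0.03 and 44.5% below 0 over all tested probe sets. The median of the 47 has no stable sign: it was 0.0099 without overexpression replicate 3, 0.00038 without negative replicate 2 and -0.0015 without overexpression replicate 2. MAP4K4, a kinase that acts on LATS, fell by 0.71 (SE 0.13, limma adjusted p = 0.0219) at 222548_s_at, from signals of 563, 708 and 660.1 to 404, 432 and 347, and its other 4 probe sets differed by -0.27 to 0.30. That call was lost without any single overexpression array and without negative replicate 2, with adjusted p-values of 0.06 to 0.0692, and also without the variance trend (0.095) and with the actin ratio in the model (0.117). LATS1 differed by 0.25 (SE 0.08, limma adjusted p = 0.117). Of the TAM receptors and ligands other than AXL, 0 of 4 tested TAM probe sets passed in limma. There 1, that of the ligand PROS1, had an unadjusted p under 0.05 (difference 0.33, adjusted p = 0.213). Over all 27618 tested probe sets 5719 had an unadjusted p under 0.05, so 1 of 4 does not set this list apart. The 9 probe sets of CCN3, CCN4, CCN5 and CCN6 were too dim to test.

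**Figure D3:**
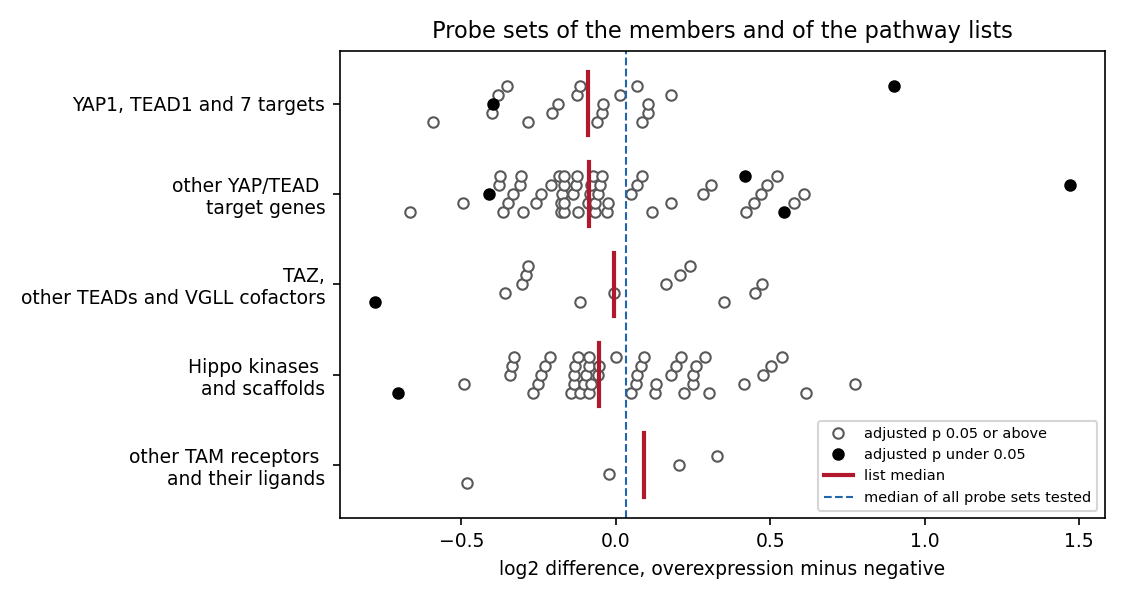
Each circle is 1 tested probe set, placed by its log2 difference, overexpression minus negative; filled circles have an adjusted p under 0.05, red bars are list medians and the dashed blue line is the median of all tested probe sets. The CCN2 circle at 0.90 and the TGFB2 circle at 1.47 stand to the right of most circles of the target genes, whose list medians lie at -0.09 in both rows.

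The genes whose profile over the 6 arrays was most like that of a member were found by the root mean square distance between log2 signals, each probe set centred on its own mean. For FJX1 these were ARHGAP29, DNAJC15 and EMP1, at distances of 0.034, 0.037 and 0.037, with differences of -0.44, -0.35 and -0.38. For CCN2 they were PCOLCE-AS1, C16orf86 and ARF1, at 0.094, 0.095 and 0.101, with differences of 1.04, 0.97 and 0.87. ARHGAP29 and EMP1 passed, with adjusted p-values of 0.0156 and 0.0309 in limma, and the other 4 did not.

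**Figure D4:**
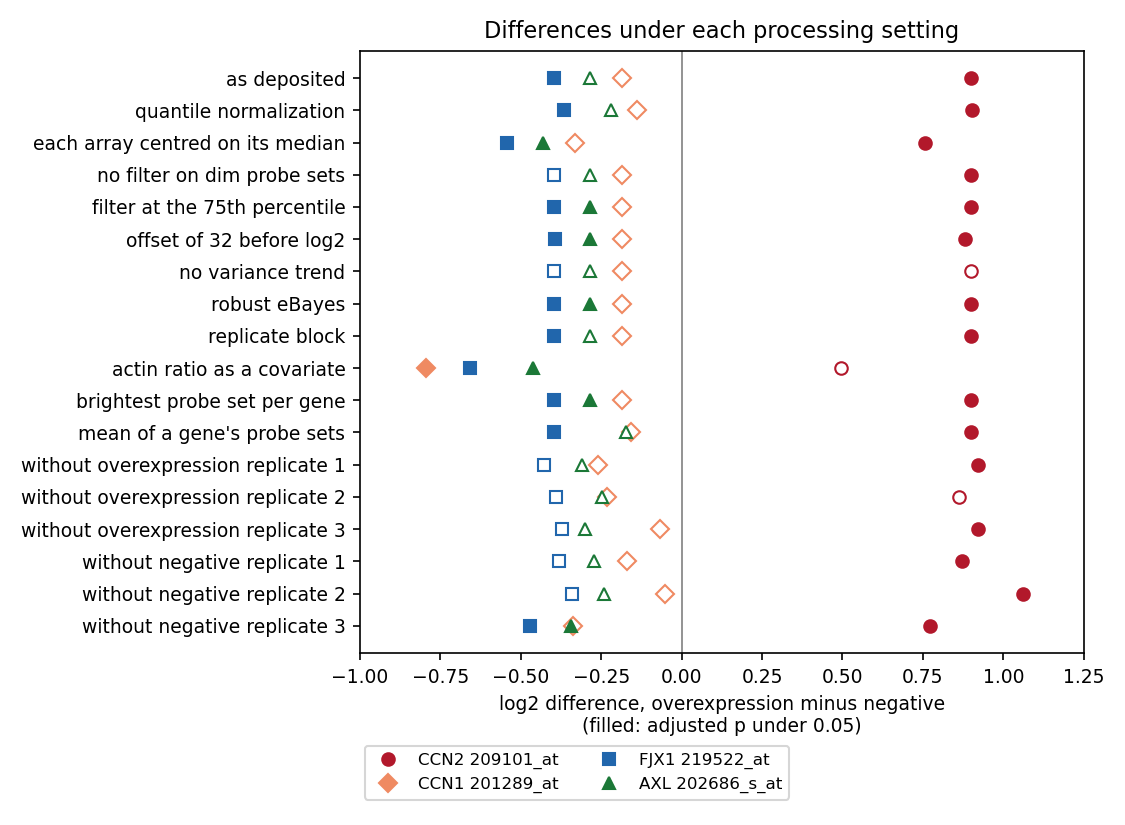
Each row is 1 processing setting and each symbol the log2 difference, overexpression minus negative, of 1 probe set of CCN2, CCN1, FJX1 or AXL; filled symbols have an adjusted p under 0.05. CCN2 lies between 0.49 and 1.06 in every row, FJX1, AXL and CCN1 lie below 0 in every row, and CCN1 is filled in 1 row, that of the actin ratio, at -0.79.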

How the data were processed

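RNA from 6 NCI-H292 samples was labelled for 3' expression arrays, 1 array per sample, per the labels' protocols. The authors deposited 1 linear intensity per probe set, the MAS5 signal, made with MAS5 and affy per the submitters' processing notes. Versions, the genome build and detection calls were not given in the sources used here. Groups and replicate numbers came from the sample titles. The 62 control probe sets were left out, signals were taken to log2, and probe sets above the array median on at least 3 arrays were kept, 27618 of 54675. Groups were compared with limma (lmFit, eBayes with trend), two-sided, with Benjamini-Hochberg adjustment over all kept probe sets. Symbols came from the platform annotation, updated through Entrez identifiers in RefSeq's GRCh38.p14 table. The fit was tested on simulated data, where it recovered 32.8% of 1.5-fold, 55.2% of 2-fold and 81.8% of 4-fold changes. Of its 118 calls there 5 were false, where 67, 67 and 66 of 27618 probe sets had been changed by these folds. On the 6 arrays 892 probe sets passed, and the share of false calls among those 892 was not tested. Because not all changes were recovered on simulated data, a probe set that did not pass may still have changed.

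All members and all their probe sets are named. From each pathway list up to 4 genes past the threshold are named, or else the 1 with the smallest p, and for each member that passed the 3 genes with the most alike profile. Genes added after their values were seen are WWTR1, TEAD3 and LATS1. The members and lists were chosen with earlier results of these data known. The software was limma 3.58.1 in R 4.3.3, with pandas 2.3.3 and matplotlib 3.10.9 in Python 3.11.15.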

Additional observations from a re-analysis of the deposited data

How the results depend on the processing

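The number of arrays, 3 per group, limits every comparison, and depth cannot be given for arrays. Of all tested probe sets 892 passed, against 2975 (387 up and 2588 down) after centring each array on its median, which lowered the median difference of all probe sets from 0.03 to -0.11, 486 with no filter, 4 without the variance trend, and 456 and 338 genes with the brightest or the mean probe set per gene. The model with the actin ratio gave 702, and leaving out 1 array gave 159 to 1171. Of the members 2 passed, against 5 after centring, 1 with no filter, 0 without the trend, 5 with the actin ratio as a covariate, and 0 to 4 with 1 array left out. Of the Hippo kinases and scaffolds 1 passed, against 2 after quantile normalization, 6 after centring, 2 with the filter at the 75th percentile, 0 without the trend, 2 with the replicate block, 2 with the actin ratio, 0 with the brightest probe set, and 0 to 3 with 1 array left out. Of the TEAD paralogues and cofactors 1 passed, against 2 after centring, 0 with the 75th percentile filter, without the trend, with the actin ratio and with the brightest probe set, and 0 to 1 with 1 array left out. Of the wider target list 4 passed, against 9 after centring, 0 without the trend, 12 with the actin ratio, 1 and 2 genes with the brightest and the mean probe set, and 0 to 6 with 1 array left out. The cause of these shifts was not tested.

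Differences near 0 changed sign. After centring, AMOTL1 225450_at was -0.058, AMOTL1 225459_at -0.042, LATS2 227013_at -0.077, YAP1 213342_at -0.042 and YAP1 224895_at -0.13. With probe sets averaged per gene AMOTL1 was -0.19 and YAP1 0.026. With the actin ratio LATS2 227013_at was -0.017 and LATS2 230348_at -0.48. After quantile normalization TEAD1 224955_at was 0.0079 and YAP1 224894_at 0.024. With 1 array left out, AXL 202685_s_at ranged from -0.20 to 0.095, LATS2 230348_at from -0.075 to 0.37, TEAD1 224955_at from -0.075 to 0.012 and YAP1 224895_at from -0.021 to 0.049. The cause was not tested, and none of these passed in any setting named here.

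Both groups use replicate numbers 1 to 3. The deviations of arrays with the same number from their group means had correlations of -0.01, -0.007 and 0.10. For numbers 1 and 2 the highest correlation with another number was the higher, at 0.11 and 0.017. For number 3 it was the lower, at -0.005. With so few arrays per group these values cannot show whether arrays of 1 number share a batch. With the replicate number as a block 1189 probe sets passed and 2 members did.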

Other observations

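Probe sets of 1 gene could also be compared within an array. The log2 ratio of AMOTL1 235277_at to 225450_at was -4.48, -4.89 and -4.79 on the overexpression arrays and -4.09, -4.13 and -3.90 on the negative ones, lower on all 3 with CT45A1. The ratio of TEAD1 214600_at to 224955_at was -3.07, -3.05 and -3.41 against -2.86, -2.86 and -2.74, also lower on all 3. TEAD4 41037_at to 204281_at gave -0.48, -0.47 and -0.48 against -0.21, 0.22 and -0.01. Each of these had an exact two-sided permutation p = 0.1, the smallest possible, and the pairs were picked after their values were seen. AXL 202686_s_at to 202685_s_at differed by -0.22 with overlapping groups (exact permutation p = 0.3).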
